A study of Mus musculus with 16 samples.

Results

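Complexes III, IV and V are the last 3 enzymes of oxidative phosphorylation, and most of their protein subunits are encoded in the nucleus. The genes described here were all gene models of the deposited mouse table whose name begins with Uqcr, with Cox followed directly by a digit from 4 to 8, or with Atp5, leaving out names that carry the pseudogene mark -ps. This rule, which uses names and no measured value, found 45 of 57010 gene models: 8 for complex III, 19 for complex IV and 18 for complex V. Of these, 41 passed the filter on low counts (8, 16 and 17). The 4 that did not pass were Cox8c, with 0 counts in all 16 libraries, Cox7b2, Cox6c2 and a second, nearly empty Atp5o model.

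RNA came from isolated cardiomyocytes of adult mice of the C57BL/6 strain. Every mouse had received an adeno-associated virus of serotype 9 (AAV9), which carries a gene into heart muscle efficiently. The virus was AAV9-Vector, a control without the transgene whose mice are labelled WT, or AAV9-PRODH, meant to overexpress PRODH. PRODH is proline dehydrogenase, an enzyme of the mitochondrial inner membrane that oxidises proline and passes the electrons to the respiratory chain. After 3 weeks the mice had either transverse aortic constriction (TAC), a surgical narrowing of the aorta that overloads the left ventricle, or a sham operation, and cells were collected 4 weeks after surgery. This gave 4 groups of 4 libraries, called vector sham and vector TAC for the control virus and PRODH sham and PRODH TAC for the other. The study describes the overexpression as cardiac-specific, but the sources used here name no promoter, give no age in weeks or sex, and do not say whether each library is 1 mouse or a pool. The p-values therefore reflect only how much these libraries vary, and part of that variation may be technical.

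Complex III, ubiquinol-cytochrome c reductase, takes electrons from ubiquinol, hands them to cytochrome c and pumps protons. Complex IV, cytochrome c oxidase, passes those electrons to oxygen, and complex V, ATP synthase, uses the proton gradient to make ATP. Several complex IV subunits exist as isoform pairs with a heart and skeletal muscle form (Cox6a2, Cox7a1, Cox8b) and a form found in most tissues (Cox6a1, Cox7a2, Cox8a). The heart depends on these complexes for nearly all of its ATP, and the nuclear respiratory factor NRF1, the ETS-family factor GABPA, the oestrogen-related receptors (ERR) and YY1 are known activators of the genes that encode them.

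The upstream sequences of 6 of these genes are shown because they carry motifs of those activators, or, for Cox7a1, because the gene fell most among the well-expressed ones and carries none of them. Each is the stretch that ends 1 base before the annotated start, taken 5′ to 3′ on the gene's own strand from RefSeq, build GRCm38.p6. The capitals mark, on either strand, the NRF1 motif CGCATGCGC, the ERR motif TCAAGGTCA or the ETS motif CCGGAAG. The NRF1 motif matches both strands at overlapping positions where a G stands before it, which gives a run of capitals 1 letter longer. The positions are Uqcr11 chr10:80406822-80406991 (minus strand), Cox6b1 chr7:30626115-30626284 (minus), Cox7a1 chr7:30184001-30184170 (plus), Cox6a1 chr5:115348959-115349128 (minus), Atp5g3 chr2:73911327-73911496 (minus) and Atp5k chr5:108434400-108434569 (minus).
Uqcr11: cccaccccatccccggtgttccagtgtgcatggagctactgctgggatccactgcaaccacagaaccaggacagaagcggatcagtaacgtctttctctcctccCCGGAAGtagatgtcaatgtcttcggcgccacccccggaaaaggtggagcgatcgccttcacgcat
Cox6b1: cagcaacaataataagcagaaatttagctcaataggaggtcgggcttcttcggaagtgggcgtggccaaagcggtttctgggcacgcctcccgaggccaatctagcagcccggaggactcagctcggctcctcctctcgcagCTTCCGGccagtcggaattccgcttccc
Cox7a1: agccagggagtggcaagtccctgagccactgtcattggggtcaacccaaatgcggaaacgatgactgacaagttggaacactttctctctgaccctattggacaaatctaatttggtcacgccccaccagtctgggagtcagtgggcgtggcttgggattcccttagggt
Cox6a1: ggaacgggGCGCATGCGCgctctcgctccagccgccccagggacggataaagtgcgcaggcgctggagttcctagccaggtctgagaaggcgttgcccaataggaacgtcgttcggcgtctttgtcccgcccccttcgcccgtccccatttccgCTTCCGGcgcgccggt
Atp5g3: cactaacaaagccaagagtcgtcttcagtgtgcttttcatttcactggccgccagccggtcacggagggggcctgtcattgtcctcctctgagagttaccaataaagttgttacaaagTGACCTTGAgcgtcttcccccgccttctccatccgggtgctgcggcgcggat
Atp5k: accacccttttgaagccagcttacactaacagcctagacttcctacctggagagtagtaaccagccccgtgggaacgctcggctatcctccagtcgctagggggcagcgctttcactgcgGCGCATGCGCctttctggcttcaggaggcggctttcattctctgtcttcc

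Of the 41 genes, 32 had an entry in the RefSeq promoter table, which runs from 250 bases before to 50 bases after the start. Both strands of these windows were searched. For 27 of the 32, a stretch of bases just after the start was found in a GENCODE M21 transcript of the gene, and for the others it was not. A gene counted if any of its windows held the motif. The ETS motif stood in 11 of the 32 (34.4%), against 9.93% of all 27025 genes of the promoter table. The NRF1 motif stood in 6 (18.8% against 1.95%), in Atp5g2, Atp5k, Atp5l, Cox6a1, Uqcr11 and Uqcrc1. The YY1 motif AAGATGGC stood in 3 (9.38% against 3.19%), in Atp5j, Atp5j2 and Atp5pb, and the ERR motif in 1, Atp5g3 (3.12% against 0.466%). Atp5k, Atp5l, Cox6a1 and Uqcr11 held both the NRF1 and the ETS motif, although the NRF1 match of Uqcr11 runs across the start and the ETS match of Atp5k lies after it, beyond the stretches shown. A match describes the letters of the window and is not a binding site. Among the genes printed, Cox6a1 was not called after TAC with either virus, and Uqcr11, Cox6b1, Cox7a1, Atp5g3 and Atp5k fell with both.

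The libraries held between 15987580 and 22680212 estimated counts, of which 53.2% to 63.0% came from the mitochondrial genome and its nuclear copies. Reads on the mouse gene model Prodh may or may not include those of the PRODH that the virus carries. Prodh stood at 10.9, 11.1, 10.4 and 11.5 CPM after sham and 8.38, 6.19, 8.23 and 6.34 CPM after TAC with vector, and at 12.6, 14.3, 13.5 and 14.8 CPM and 13.4, 12.3, 14.7 and 14.2 CPM with PRODH. Prodh itself was higher in PRODH TAC than in vector TAC by 0.90 ± 0.10 on the log2 scale (edgeR quasi-likelihood test, adjusted p = 2.19e-08). In the sham groups the difference was 0.33 ± 0.10 (adjusted p = 0.0517). After TAC with vector, Prodh changed by -0.58 ± 0.11 (adjusted p = 2.58e-05), which enters the difference between the TAC groups. Markers of cardiomyocytes were abundant in all libraries, with 18 genes summing to between 34668 and 52673 CPM, the counts scaled to a common library size, and markers of other heart cells were present too. In vector TAC the 10 fibroblast markers summed to 1429–1603 CPM, against 174–245 in vector sham, 217–225 with PRODH after sham and 392–496 with PRODH after TAC. In the same order, the 10 myeloid markers summed to 367–395, 124–199, 189–230 and 203–250 CPM, and the 11 endothelial markers to 1847–2001, 1625–1773, 1676–1785 and 1746–1882 CPM. The endothelial sum moved less than the median of its members. Against vector sham, 10 of the 11 were called higher in vector TAC and 1 lower (edgeR, median log2 change 0.97), where 30.3% and 26.2% of all tested genes were. Against vector TAC, 10 were lower and 1 higher in PRODH TAC (median -0.42), where 24.6% and 18.5% of all tested genes were. The cardiomyocyte sum was 36812–40128 CPM after TAC and 45995–51073 after sham with vector, and 34668–39473 after TAC and 43554–52673 after sham with PRODH. In bulk RNA, fewer cells of a type and less RNA per cell cannot be told apart, and the part these shifts have in the results below was not tested. A scaling on the cardiomyocyte sum is given, but it cannot test cell content, because its 18 markers changed unequally after TAC. With vector 11 were called lower and 3 higher (edgeR, median log2 change -0.32), where 26.2% and 30.3% of all tested genes were. With PRODH 12 were lower and 1 higher (median -0.26), where 17.8% and 17.2% of all tested genes were.

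The 41 genes were not equally abundant. Per kilobase of gene model in vector sham, Atp5b, the catalytic beta subunit of ATP synthase, stood highest at 1893 ± 93.8 CPM per kb (SD, n = 4). Next came Cox4i1, the ubiquitous form of the large regulatory subunit of complex IV, at 1843 ± 156, and Atp5g3, which encodes the membrane c subunit, at 1728 ± 113, and these neighbours lay within each other's spread. Cox6c (1547 ± 46.4) and Atp5a1, the alpha subunit (1243 ± 55.5), followed. At the lower end were the non-muscle forms Cox8a (68.7 ± 15.1) and Cox6a1 (49.98 ± 8.13), and then Atp5g2 (5.43 ± 3.56), Cox4i2 (2.71 ± 0.47) and Cox6b2 (1.48 ± 0.66 CPM per kb). The value for Atp5g1, 180.5 CPM per kb, rests on a deposited length of 4660 bases and is uncertain for that reason. All 41 genes together summed to 26439 ± 1427 CPM in vector sham, of which complex V gave 15316 ± 701, complex IV 6954 ± 496 and complex III 4169 ± 250.

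The first comparison asked what pressure overload changed in hearts that carried the control virus. After TAC, nearly all nuclear subunits of the 3 complexes fell, with a median of -0.55 on the log2 scale. Changes are given as log2 fold changes ± standard error unless another scale is named. Of the 41 genes, 37 were lower, 1 was higher and 3 were not called at an adjusted p of 0.05 (edgeR, Benjamini-Hochberg over 14066 genes). Over all tested genes, 26.2% were called lower and 30.3% higher (56.5% in either direction), with a median change of 0.02. The values of the 2 groups did not overlap for 35 of the 41 in the lower direction and 1 in the higher, against 21.1% and 26.1% of all genes. The summed level of the 41 genes was 17205, 18163, 17848 and 17328 CPM in the vector TAC libraries, and the lowest vector sham library stood at 25247 CPM.

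All 8 complex III genes fell, with a median of -0.61 and a narrow range from -0.77 to -0.54. Uqcrfs1, the Rieske iron-sulphur protein that passes electrons to cytochrome c1, stood at 671, 769, 700 and 721 CPM in vector sham and at 425, 469, 397 and 386 CPM in vector TAC. This was the largest fall in the complex, at -0.77 ± 0.07 (edgeR adjusted p = 4.96e-10), and the groups lay well apart. The core proteins Uqcrc1 and Uqcrc2, relatives of the mitochondrial processing peptidase, changed by -0.64 ± 0.08 and -0.61 ± 0.07. Uqcrc1 went from 850, 959, 858 and 815 CPM to 529, 505, 609 and 585 CPM. Uqcrc2 went from 679, 702, 603 and 640 CPM to 449, 459, 402 and 407 CPM. In both, every TAC library was below every sham library. The small subunits Uqcrb (-0.73), Uqcr10 (-0.60), Uqcr11 (-0.58), Uqcrh (-0.56) and Uqcrq (-0.54) fell to a like extent.

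Complex IV was the most uneven, with 13 of 16 genes lower, 1 higher and a median of -0.52. Cox7a1, the muscle form of subunit 7a, fell to less than its level in any sham library: it stood at 374, 486, 440 and 424 CPM in vector sham and at 203, 222, 214 and 202 CPM in vector TAC. That was a 2.05-fold decrease, or -1.04 ± 0.09 (edgeR adjusted p = 1.08e-10). Its non-muscle counterpart Cox7a2 fell by 0.55 on the log2 scale, from 326–358 to 224–251 CPM. The other muscle forms also fell, Cox6a2 at -0.42 ± 0.10 and Cox8b at -0.44 ± 0.10. Cox6a2 was the one well-expressed lower call whose groups overlapped, since vector sham replicate 1 (585 CPM) lay below vector TAC replicate 3 (595 CPM).

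The non-muscle forms Cox6a1 and Cox8a were not called. Cox6a1 stood at 21.8, 32.4, 30.1 and 29.9 CPM in vector sham and at 27.4, 30.3, 27.5 and 23.7 CPM in vector TAC (-0.07 ± 0.12, adjusted p = 0.622). Cox8a stood at 26.2, 46.0, 39.2 and 39.7 CPM and at 40.7, 43.0, 42.4 and 34.3 CPM (0.08 ± 0.13, adjusted p = 0.638). Both sets overlapped, and both genes were far less abundant than the muscle forms. Among the subunits without a muscle pair, Cox6c fell by 0.66 ± 0.08, Cox5a, which helps bind the regulatory subunit 4, at -0.65 ± 0.09, and Cox5b at -0.64 ± 0.10. Cox4i1 fell by 0.45 ± 0.10, from 1318, 1570, 1434 and 1318 CPM to 916, 939, 1145 and 1120 CPM, with no overlap. Cox6b1, which lies at the contact of the complex IV dimer, went from 657, 704, 626 and 591 CPM to 431, 445, 476 and 467 CPM (-0.50 ± 0.08). Cox7a2l had the smallest change among the 37 lower calls (-0.28 ± 0.08).

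Cox4i2, the alternative form of subunit 4 that is best known from lung and from low oxygen, was the only gene of the set that rose. It stood at 1.49, 2.28, 2.11 and 2.06 CPM in vector sham and at 3.62, 3.53, 3.83 and 5.91 CPM in vector TAC. The rise was 2.09-fold, or 1.06 ± 0.18 (edgeR adjusted p = 1.05e-05), and the groups did not overlap, but replicate 4 stood alone at the top. Its level remained a small part of that of Cox4i1. The summed mural markers (smooth muscle and pericytes) went from 426–447 to 522–580 CPM between the same groups. Singly, 6 of the 9 mural markers were called higher and 2 lower (median 0.82), where 30.3% and 26.2% of all tested genes were. With PRODH the mural sum went from 415–448 CPM after sham to 489–557 CPM after TAC. There 7 of the 9 were called higher and 0 lower (median 0.74), where 17.2% and 17.8% of all tested genes were. Cox4i2 was not called in that arm (0.30 ± 0.18). The part of these markers in the rise of Cox4i2 was not tested. Cox6b2, a form known from testis, was called lower at -1.47 ± 0.43 (adjusted p = 0.00469) at under 1 CPM in every vector library, and its groups overlapped.

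In complex V, 16 of 17 genes fell, with a median of -0.50 and Atp5g2 as the one not called. The catalytic head was lower: Atp5b stood at 3558, 3895, 3503 and 3554 CPM in vector sham and at 2326, 2369, 2289 and 2236 CPM in vector TAC (-0.65 ± 0.07, edgeR adjusted p = 4.23e-09). Atp5a1, its partner in the head, went from 3047, 3266, 2945 and 3028 CPM to 1876, 1864, 1785 and 1781 CPM (-0.75 ± 0.07). The gaps between the groups were many times the spread within them. In the central stalk that turns inside the head, Atp5c1, the gamma subunit, changed by -0.36 ± 0.08, Atp5d, the delta subunit, by -0.50 ± 0.12, and Atp5e, the epsilon subunit, by -0.64 ± 0.12.

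The largest fall in complex V was in Atp5pb, subunit b of the peripheral stalk that holds the head still. It stood at 979, 958, 904 and 926 CPM in vector sham and at 549, 616, 508 and 524 CPM in vector TAC (-0.78 ± 0.07, edgeR adjusted p = 6.65e-11). The other stalk genes were lower as well, Atp5j (coupling factor 6) at -0.74 ± 0.08, Atp5o at -0.50 ± 0.10 and Atp5h at -0.49 ± 0.07. The c subunit, which forms the rotating ring, is made from 3 genes that encode the same mature protein. Atp5g3 fell by 0.63 ± 0.08, from 1173, 1365, 1237 and 1224 CPM to 775, 836, 799 and 826 CPM. Atp5g1 fell by 0.35 ± 0.09, from 720, 948, 850 and 845 CPM to 628, 650, 715 and 639 CPM. Atp5g2 stood at 1.11 to 4.63 CPM in vector sham and 0.813 to 2.62 CPM in vector TAC and was not called (-0.64 ± 0.51). The small membrane subunits Atp5k, Atp5j2, Atp5mpl, Atp5l and Atp5md fell by 0.52, 0.46, 0.45, 0.42 and 0.41 on the log2 scale.

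**Figure D1:**
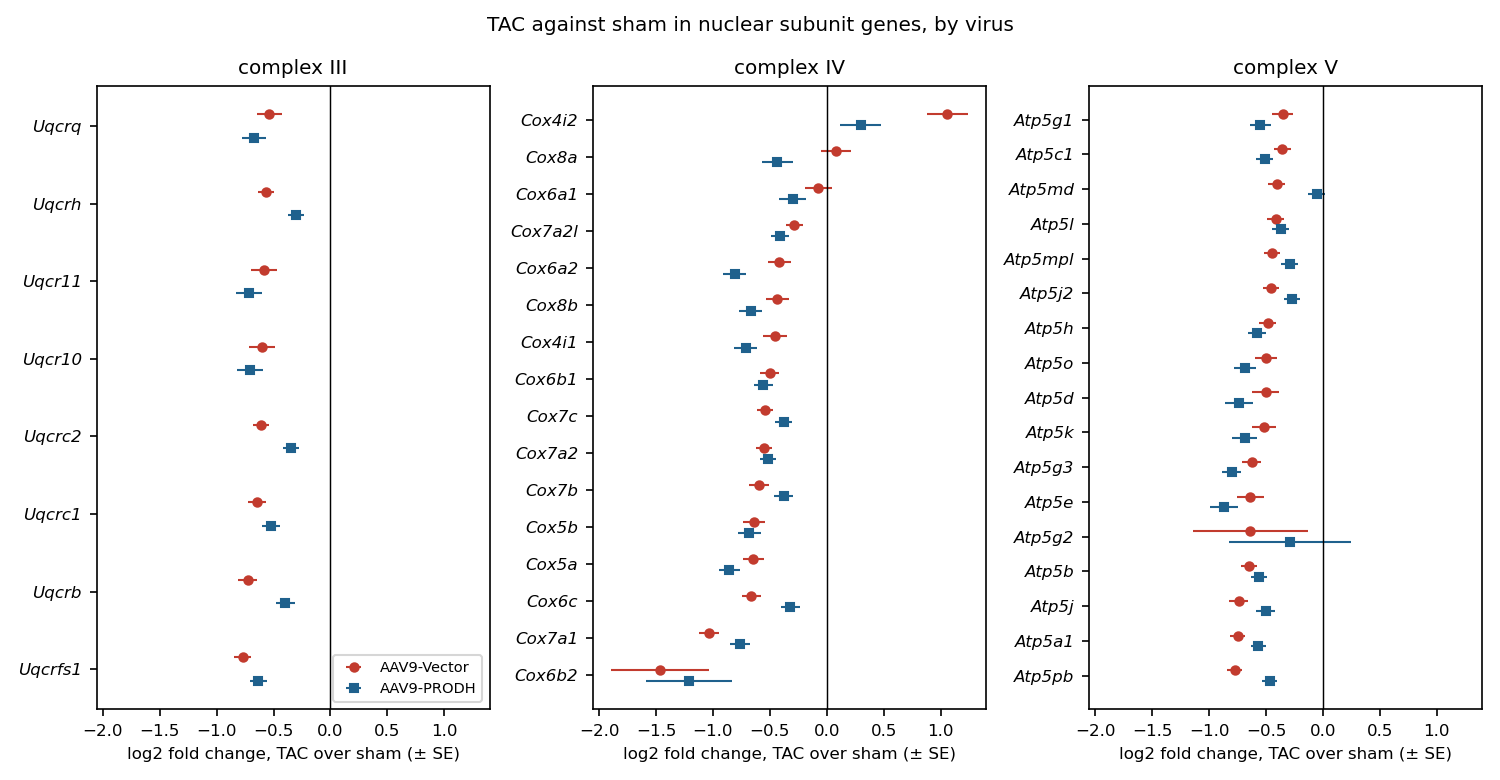
The log2 fold change of TAC over sham (x axis, bars are standard errors) is plotted for the 41 subunit genes (y axis) in 3 panels, one for each complex, with circles for AAV9-Vector and squares for AAV9-PRODH. All 8 complex III genes lie left of 0 in both virus groups, while Cox4i2 lies right of 0 at 1.06 and 0.30.

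How far these genes fell depended on the scaling of the libraries, and the plot of medians under 5 scalings gives the values. With library size alone the median of the 41 genes was -0.20, the median of all tested genes was 0.37, and 21 genes were lower and 3 higher. Scaling on the cardiomyocyte marker sum gave a median of -0.25 against 0.32 for all genes, with 27 lower and 2 higher. These scalings also raised the share of higher calls among all called genes from 53.6% to 86.2% and 83.3%. Of all 14066 tested genes, 1198 and 1364 were lower under them, and 7474 and 6814 higher. Of the 37 lower calls, 21 held under all alternatives that gave a value for the gene, among them Cox7a1, Atp5pb, Atp5a1, Atp5b, Uqcrfs1, Uqcrc1 and Uqcrc2, and so did the rise of Cox4i2. Cox6a1 turned from -0.07 to 0.28 with library size alone (adjusted p = 0.0266), Cox8a reached 0.43 (adjusted p = 0.00672), and Cox7a2l stood at 0.07, or 0.02 with the cardiomyocyte sum. Leaving out any 1 of the 16 libraries gave 37 lower and 1 higher each time.

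**Figure D2:**
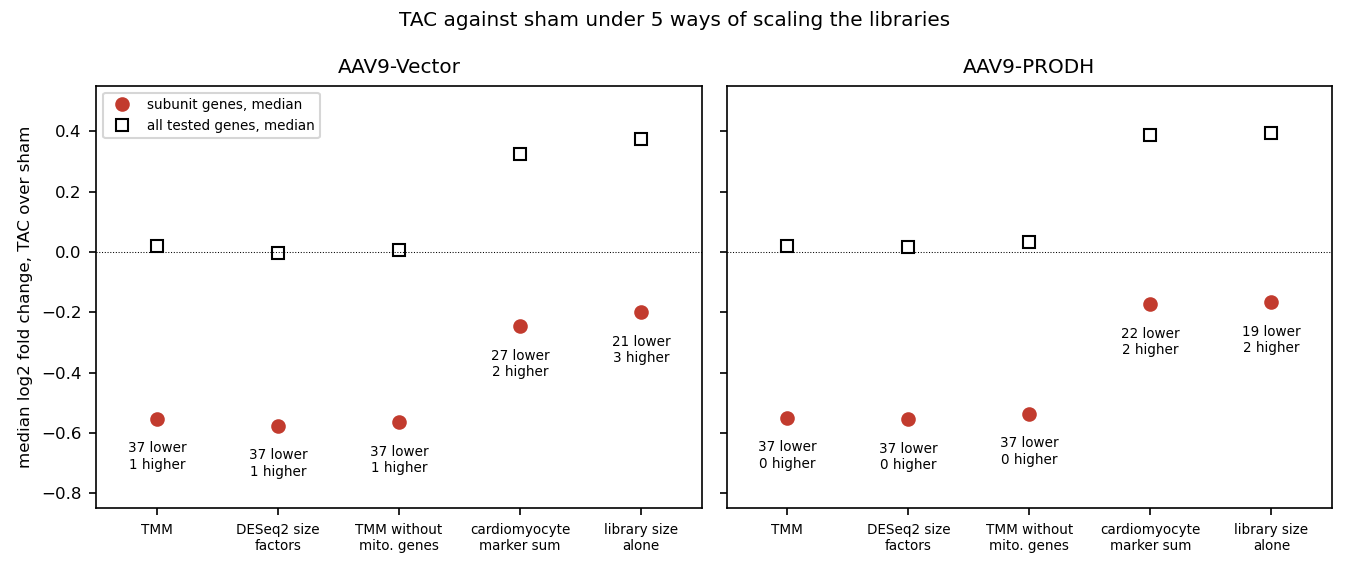
The median log2 fold change of TAC over sham (y axis) is shown for the 41 subunit genes (filled circles) and for all tested genes (open squares) under 5 ways of scaling the libraries (x axis), in panels for AAV9-Vector and AAV9-PRODH. The median of the subunit genes lies below that of all genes under each scaling, and the counts printed beside the circles are the genes called lower and higher.

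The same comparison in hearts that carried AAV9-PRODH also gave a broad fall. Here 37 of 41 genes were lower and 0 higher (edgeR), against 17.8% and 17.2% of all tested genes (35% in either direction), and the median was -0.55 against 0.02. At an unadjusted p under 0.05 the count of higher genes was also 0, as it was with DESeq2. The groups did not overlap for 38 genes in the lower direction (17.4% of all genes). The lower calls were 8 of 8 in complex III, 14 of 16 in complex IV and 15 of 17 in complex V. Of the 37 calls, 19 held under all alternatives. With library size alone the median was -0.17 with 19 lower and 2 higher, and with the cardiomyocyte sum it was also -0.17, with 22 lower and 2 higher, while the median of all genes was 0.40 and 0.39. Of all 14066 tested genes, 311 were lower and 7875 higher with library size alone. With the cardiomyocyte sum 354 were lower and 7505 higher. Under both scalings Cox6c, Uqcrc2, Uqcrh, Atp5j2, Atp5mpl and Atp5l, all called lower with the main scaling, stood between 0.00 and 0.11.

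The steepest falls in the PRODH arm, Cox6b2 at -1.21 ± 0.38 aside, were in Atp5e and Cox5a. Atp5e went from 188, 221, 248 and 315 CPM in PRODH sham to 118, 122, 139 and 153 CPM in PRODH TAC (-0.87 ± 0.12, edgeR adjusted p = 2.69e-05). Cox5a went from 390, 477, 517 and 591 CPM to 257, 247, 290 and 295 CPM (-0.86 ± 0.09, adjusted p = 6.17e-08). The lowest sham library lay above the highest TAC library in both. Cox6a2, the muscle form of subunit 6a, stood at 645, 767, 805 and 910 CPM and at 397, 421, 479 and 486 CPM (-0.81 ± 0.10). Cox7a1 stood at 339, 383, 399 and 480 CPM in PRODH sham and at 215, 222, 242 and 264 CPM in PRODH TAC (-0.76 ± 0.09). Both muscle forms were separated from sham without overlap. Atp5b went from 3356, 3639, 3754 and 3915 CPM to 2447, 2314, 2511 and 2680 CPM (-0.56 ± 0.07), and Uqcrfs1 changed by -0.63 ± 0.07.

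At the upper end of the signed changes in the PRODH arm stood Cox4i2, Atp5md and Atp5j2. Atp5md, a small membrane subunit associated with ATP synthase dimers, stood at 389, 343, 348 and 421 CPM in PRODH sham and at 348, 384, 340 and 373 CPM in PRODH TAC. The groups overlapped and the gene was not called (-0.06 ± 0.07, edgeR adjusted p = 0.583). With library size alone it was higher by 0.33 (adjusted p = 2.47e-04), and with the cardiomyocyte sum by 0.32. Cox4i2 was not called at 0.30 ± 0.18 (adjusted p = 0.202), with 2.57, 2.24, 2.12 and 3.09 CPM against 2.74, 3.26, 3.21 and 3.07 CPM. Atp5j2 fell by 0.27 ± 0.07, from 602, 562, 596 and 711 CPM to 502, 512, 509 and 524 CPM, and was at 0.11 and 0.10 under the same scalings. Cox8a fell in this arm (-0.43 ± 0.13, adjusted p = 0.0178) from 35.8, 43.4, 39.0 and 45.5 CPM to 25.9, 28.9, 31.4 and 34.8 CPM. Cox6a1 was not called (-0.30 ± 0.12, adjusted p = 0.0571).

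The second comparison named by the study set PRODH TAC against vector TAC, and so shares the vector TAC libraries with the first. Small differences in both directions were found. Of the 41 genes, 8 were lower and 6 higher in PRODH TAC (edgeR, adjusted p under 0.05), against 24.6% and 18.5% of all tested genes (43.1% in either direction), shares close to those of the subunit genes. The values did not overlap for 6 genes in each direction (22.6% and 16.7% of all genes). The median was -0.12 against -0.04 for all genes. In a fit of only these 2 groups the medians were -0.07 and -3.16e-05. There 7 of 40 subunit genes were lower and 10 higher, with 3078 and 3035 of all 13841 tested genes. The summed level of the 41 genes was 17756 ± 977 CPM in PRODH TAC and 17636 ± 449 CPM in vector TAC, a difference smaller than the spread of either group. Between the same groups the fibroblast marker sum was 1429–1603 CPM in vector TAC and 392–496 CPM in PRODH TAC, and its part in these differences was not tested. By complex, complex III had 0 lower and 2 higher, complex IV 7 lower and 1 higher, and complex V 1 lower and 3 higher.

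The 6 higher genes were Atp5md, Cox6c, Atp5pb, Uqcrc2, Atp5j and Uqcrb. Atp5md stood at 286, 280, 311 and 284 CPM in vector TAC and at 348, 384, 340 and 373 CPM in PRODH TAC (0.31 ± 0.07, edgeR adjusted p = 7.56e-04). Cox6c stood at 515, 585, 458 and 408 CPM and at 601, 660, 586 and 594 CPM (0.31 ± 0.08, adjusted p = 0.0032). Neither pair of groups overlapped, although vector TAC replicate 2 of Cox6c (585 CPM) nearly reached the lowest PRODH TAC library (586 CPM). Atp5pb stood at 549, 616, 508 and 524 CPM and at 655, 613, 652 and 667 CPM (0.24 ± 0.07, adjusted p = 0.00611), so the same vector TAC library lay just above 1 PRODH TAC library. Uqcrc2 stood at 449, 459, 402 and 407 CPM and at 514, 473, 510 and 521 CPM (0.23 ± 0.07, adjusted p = 0.00678). These groups lay apart, while those of Atp5j (0.23 ± 0.08, adjusted p = 0.0238) and Uqcrb (0.22 ± 0.08, adjusted p = 0.029) overlapped. For all 6 genes the vector TAC values were below every sham library of the same virus.

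The 8 lower genes were Cox4i2, Cox8a, Cox6a1, Cox6a2, Cox5a, Cox6b1, Cox7a2l and Atp5g3. Cox4i2, at 3.62, 3.53, 3.83 and 5.91 CPM in vector TAC and 2.74, 3.26, 3.21 and 3.07 CPM in PRODH TAC, differed by -0.45 ± 0.16 (edgeR adjusted p = 0.0244). Without vector TAC replicate 4 the difference was -0.25 (adjusted p = 0.214), and without PRODH TAC replicate 1 or 4 it was -0.40 and -0.42 (adjusted p = 0.0748 and 0.0622). Cox5a stood at 321, 365, 319 and 324 CPM and at 257, 247, 290 and 295 CPM (-0.29 ± 0.09, adjusted p = 0.0139). Cox6a2 stood at 521, 574, 595 and 541 CPM and at 397, 421, 479 and 486 CPM (-0.32 ± 0.10, adjusted p = 0.0153). The groups did not overlap in these genes, nor in Cox7a2l (-0.21 ± 0.08, adjusted p = 0.0318) and Atp5g3 (-0.21 ± 0.08, adjusted p = 0.0451). They overlapped in Cox8a (-0.41 ± 0.13, adjusted p = 0.0201), Cox6a1 (-0.33 ± 0.12, adjusted p = 0.0295) and Cox6b1 (-0.21 ± 0.08, adjusted p = 0.0441). Thus both members of the 6a pair, muscle Cox6a2 and non-muscle Cox6a1, were lower.

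**Figure D3:**
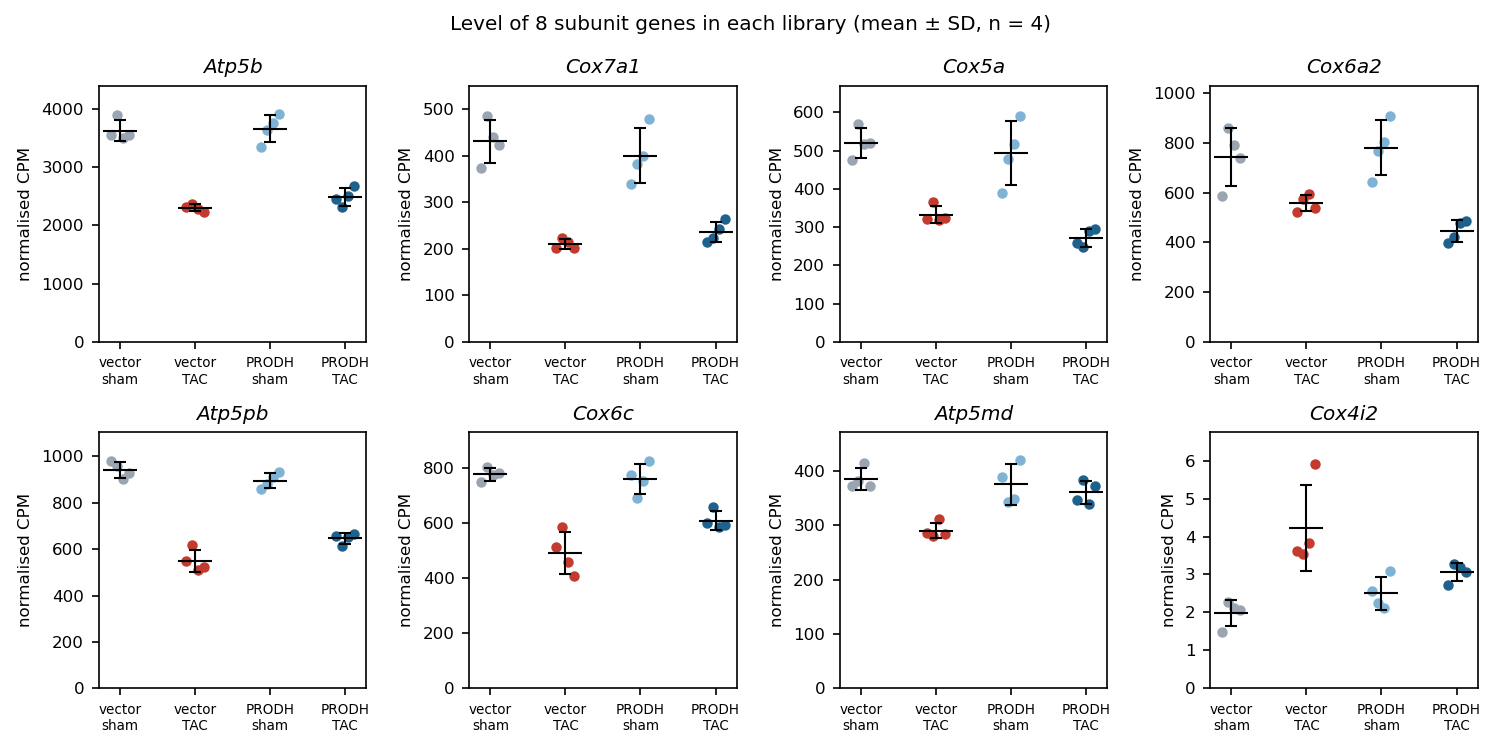
The level of 8 subunit genes in normalised CPM (y axis, linear from 0) is plotted for each of the 16 libraries by group (x axis), with the mean and SD as bars (n = 4). Atp5b, Cox7a1, Cox5a and Cox6a2 are low after TAC with both viruses, Atp5md stays near its sham values in PRODH TAC (340 to 384 CPM), and Cox4i2 is highest in vector TAC.

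The remaining 27 genes were not called between the viruses after TAC, and among them were the most abundant ones. Atp5b stood at 2326, 2369, 2289 and 2236 CPM in vector TAC and 2447, 2314, 2511 and 2680 CPM in PRODH TAC (0.11 ± 0.07, edgeR adjusted p = 0.21). Atp5a1, at 1876, 1864, 1785 and 1781 CPM and 1978, 1891, 2060 and 2116 CPM, differed by 0.14 ± 0.07 (adjusted p = 0.1) without overlap. Cox7a1, the gene with the steepest fall after TAC among the well-expressed ones, stood at 210 ± 9.72 and 236 ± 22.2 CPM (0.17 ± 0.09, adjusted p = 0.138). Cox4i1 differed by -0.25 ± 0.10 (adjusted p = 0.0532), Uqcrfs1 by 0.04 ± 0.07 and Uqcrc1 by 0.11 ± 0.08. A gene that was not called may still differ.

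Which genes were called here depended on the libraries and on the scaling. The higher calls of Atp5md, Cox6c and Atp5pb held under all 25 alternatives, while those of Uqcrc2, Atp5j and Uqcrb did not, and 0 of the 8 lower calls held under all. The count of lower genes was 8 with all libraries and 5 or fewer in 13 of 16 fits that left out 1. It was 1 without PRODH TAC replicate 1, 2 without PRODH TAC replicate 2, 3 without vector TAC replicate 3 and 5 without PRODH TAC replicate 3 or vector sham replicate 1. It was 4 without vector TAC replicate 2 or 4, without vector sham replicate 2, 3 or 4, and without PRODH sham replicate 1, 2 or 3. The count of higher genes reached 10 to 12 when any 1 sham library was left out. Of all tested genes, 2997 to 3128 were higher in those fits, in place of 2603. Sham libraries are no part of this comparison, but all 16 libraries share the filter, the scaling and the estimate of spread. The median of all tested genes moved from -0.0430 with all libraries to between -0.000850 and -0.000448 in those fits. Cox5a and Cox6a2 were the steadiest of the lower genes, each called in 14 of those 16 fits, whereas Atp5g3 was called in 1 and Cox6b1 and Cox7a2l in 3. Within vector TAC, replicates 3 and 4 were closest to each other. The count of higher genes was 4 without replicate 3 and 4 without replicate 4 of that group, and 7 and 8 without its replicate 1 or 2.

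The differences between the viruses after TAC moved with the base composition of the transcripts. Across the 13888 tested genes with a transcript in GENCODE M21, the median difference went from 0.32 in genes under 40% GC to -0.25 in genes over 60% GC, and Pearson's r was -0.29 across genes. Among the 41 subunit genes r was -0.47 and Spearman's rho was -0.49, as a description over genes that share their libraries. The 6 higher genes had a median GC content of 47.1% (42.2% to 51.4%), the 8 lower genes 51.9% (48.99% to 58.8%) and the others 53.8%. With a GC offset per library, an alternative chosen after seeing the data, Atp5pb stayed higher (0.22, adjusted p = 0.00253), as did Cox6c (0.29, adjusted p = 0.00512), Atp5j (0.26, adjusted p = 0.0206) and Atp5md (0.22, adjusted p = 0.0231). Uqcrb went to 0.05 (adjusted p = 0.699) and Uqcrc2 to 0.11 (adjusted p = 0.134). Of the 8 lower genes, Cox4i2 (-0.34, adjusted p = 0.0745), Cox8a (-0.28, adjusted p = 0.0556) and Cox6a1 (-0.20, adjusted p = 0.122) lost the call. That offset gave 11 higher and 6 lower subunit genes, the latter including Atp5c1, which was not called without it. Of all 14066 tested genes it called 2443 higher and 3536 lower. In the sham groups the medians of all GC classes lay between -0.01 and 0.04.

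**Figure D4:**
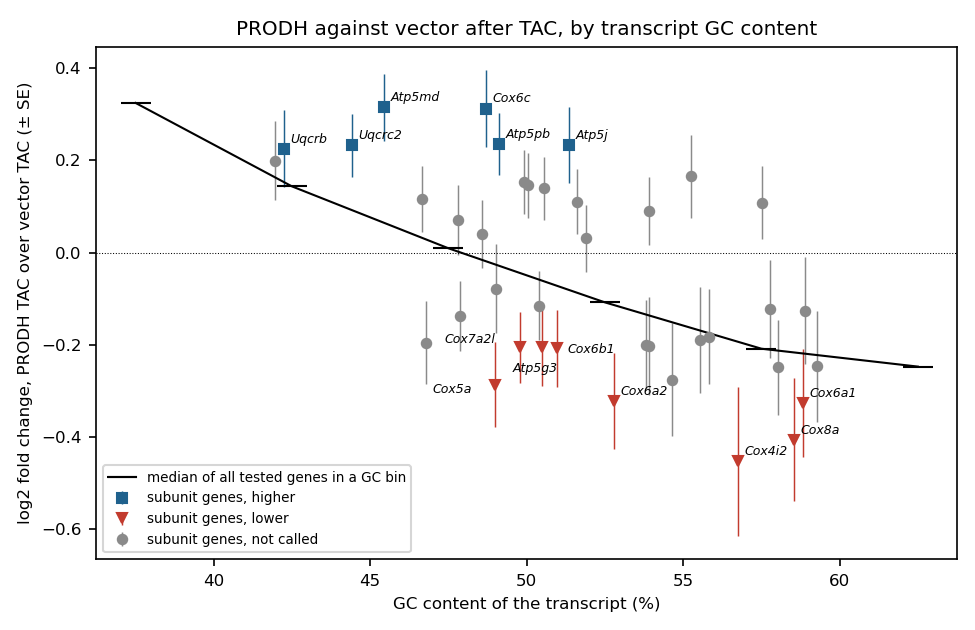
The log2 fold change of PRODH TAC over vector TAC (y axis, bars are standard errors) is plotted against transcript GC content in percent (x axis) for 39 subunit genes, leaving out the low-count genes Cox6b2 and Atp5g2, with the median of all tested genes in GC bins as a line. The line falls from 0.32 to -0.25, the 6 higher genes lie between 42.2% and 51.4% GC, and the 8 lower genes between 48.99% and 58.8%.

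Side by side, 36 of the 41 genes were lower after TAC with both viruses. The share of all tested genes lower with both was not counted. It cannot exceed the 17.8% that were lower with PRODH. Atp5md was called with vector and not with PRODH, and Cox8a with PRODH and not with vector, although the difference between the TAC effects was not called for Cox8a (-0.51 ± 0.19, adjusted p = 0.0532). The test of the difference itself, the TAC effect with PRODH minus that with vector, called 5 genes higher and 1 lower (edgeR), against 10.9% and 15.8% of all tested genes. The positive values were those of Atp5md (0.35 ± 0.10, adjusted p = 0.0105), Atp5pb (0.31 ± 0.10, adjusted p = 0.0172), Cox6c (0.34 ± 0.12, adjusted p = 0.0304), Uqcrb (0.33 ± 0.12, adjusted p = 0.0371) and Uqcrc2 (0.26 ± 0.10, adjusted p = 0.0423). For these 5 the fall was thus smaller with PRODH: Atp5pb changed by -0.78 with vector and -0.47 with PRODH, Cox6c by -0.66 and -0.32, and Uqcrc2 by -0.61 and -0.35. The negative value was that of Cox4i2 (-0.76 ± 0.26, adjusted p = 0.0259), which rose with vector. Of the 6, the call of Atp5pb held under all 24 alternatives that gave a value. The count of 5 became 2 without vector TAC replicate 3 or 4, 3 without PRODH TAC replicate 1 or 3, 8 without vector TAC replicate 2 and 12 without PRODH sham replicate 4.

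Between the sham groups no subunit gene was called. The counts were 0 lower and 0 higher of 41 with edgeR, against 2.2% and 2.81% of all tested genes (5% in either direction), 0 at an unadjusted p under 0.05, and 0 with DESeq2. No gene had groups without overlap, where 5.17% of all genes did in the lower and 5.25% in the higher direction. The median difference was -0.03 and the range -0.61 (Atp5g2, at ± 0.52) to 0.31. Atp5b differed by 0.02 ± 0.07, Cox5a by -0.07 ± 0.09, Cox7a1 by -0.11 ± 0.09 and Atp5md by -0.04 ± 0.07. The summed level of the 41 genes was 25998 ± 2553 CPM in PRODH sham, where replicate 4 was highest at 29347 CPM and replicate 1 lowest at 23259 CPM.

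Isoform choice within a subunit was examined with ratios of estimated counts, which do not depend on the scaling of the libraries. The 7 pairs in 4 comparisons gave 28 exact two-sided permutation tests, in which 4 libraries against 4 cannot go below p = 0.0286. That smallest value was reached in 9 tests, and 0 of 28 passed after Benjamini-Hochberg adjustment over the 28 (adjusted p = 0.0889 for each of the 9). The ratio of muscle Cox6a2 to Cox6a1 was 26.8, 26.5, 26.3 and 24.7 in vector sham and 19.0, 18.9, 21.6 and 22.7 in vector TAC. In the PRODH arm its mean went from 29.3 ± 2.56 to 20.6 ± 1.36, again with no overlap. The ratio of muscle Cox7a1 to Cox7a2 was 1.26 ± 0.0872 after sham and 0.902 ± 0.0233 after TAC with vector, and 1.17 ± 0.0900 and 0.988 ± 0.0563 with PRODH. On the log2 scale its mean in vector TAC differed by 0.48 from that in vector sham and by 0.13 from that in PRODH TAC. Neither pair of groups overlapped, but the highest vector TAC and the lowest PRODH TAC library nearly touched, at 0.9348 and 0.9355. In the PRODH arm TAC and sham overlapped (highest 1.049 after TAC, lowest 1.043 after sham). The ratio of Cox8b to Cox8a was 6.98 ± 1.09 in vector sham and 4.79 ± 0.680 in vector TAC, without overlap, while in the PRODH arm TAC and sham overlapped. In all 3 pairs the muscle form made up less of the pair in vector TAC than in vector sham, in every library.

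Cox4i2 counts per Cox4i1 count were 0.00143 after sham and 0.00411 after TAC with vector, and 0.0018 and 0.00359 with PRODH, with no overlap between TAC and sham for either virus. The ratio of Atp5g1 to Atp5g3, 2 genes for the same c subunit, went from 0.672 ± 0.0385 to 0.814 ± 0.0563 with vector and from 0.689 ± 0.0309 to 0.819 ± 0.0343 with PRODH. Every TAC library lay above every sham library there. The ratios of Cox6b2 to Cox6b1 and Atp5g2 to Atp5g3 rest on very low counts and overlapped in all comparisons.

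**Figure D5:**
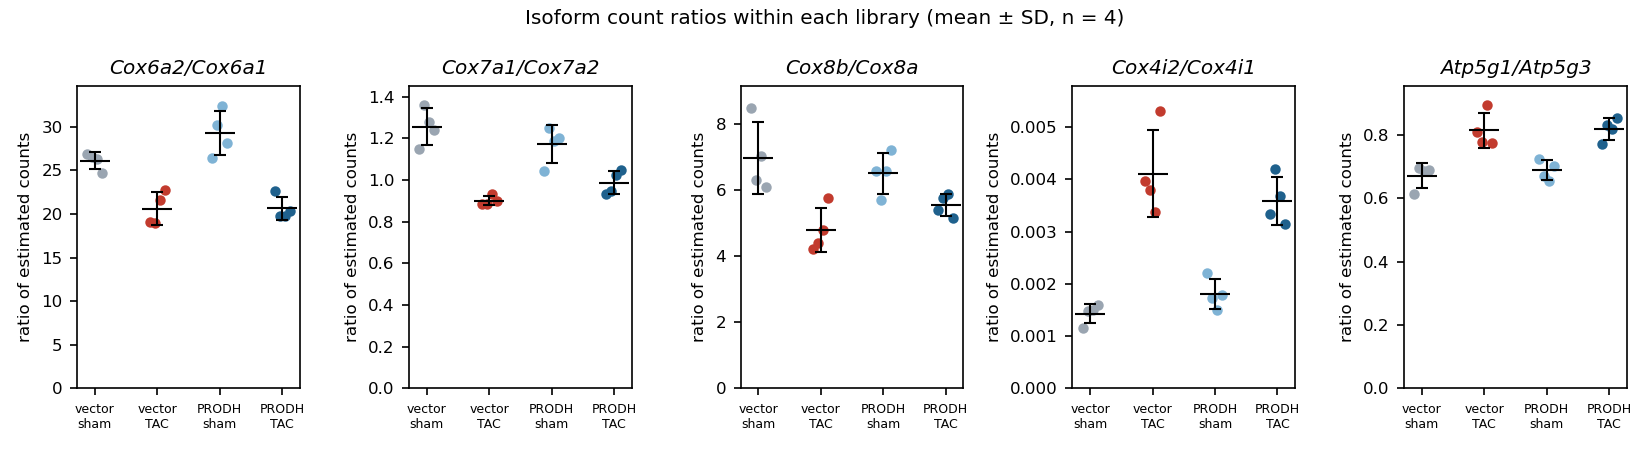
The ratio of estimated counts (y axis, linear from 0) is plotted for 5 isoform pairs in each of the 16 libraries by group (x axis), with the mean and SD as bars (n = 4). Cox6a2/Cox6a1 and Cox7a1/Cox7a2 are lower and Cox4i2/Cox4i1 and Atp5g1/Atp5g3 higher in vector TAC than in vector sham, each without overlap.

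Most partners of these subunits were also lower after TAC with vector, where 26.2% of all tested genes were. The values of partners and regulators come from the main scaling only. How far they depend on the scaling, on single libraries or on GC content was not tested. All 6 subunits of complexes III, IV and V that the mitochondrial genome encodes fell. Among them mt-Cytb, the cytochrome b of complex III, changed by -0.70 ± 0.09, mt-Co1, the catalytic subunit of complex IV, by -0.41 ± 0.10, and mt-Atp6, the proton channel of complex V, by -0.69 ± 0.09. In the PRODH arm 5 of 6 fell, and between the viruses after TAC mt-Atp8 was higher (0.60 ± 0.15) and the other 5 were not called. All 4 genes of complex II fell with both viruses, and Sdha, its flavoprotein, was at -0.95 ± 0.08 with vector and higher in PRODH TAC than in vector TAC by 0.50 ± 0.08.

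Genes for assembly and for electron carriers fell too. For complex III, 6 of 7 were lower with vector after TAC, led by Ttc19 (-0.91 ± 0.08), Uqcc1 (-0.60 ± 0.06) and Lyrm7 (-0.70 ± 0.09), which help build the complex, and in PRODH TAC 3 of 7 were higher and 2 lower than in vector TAC (18.5% and 24.6% of all tested genes). For complex IV, 19 of 25 were lower and 1 higher, with Lrpprc, which stabilises mitochondrial mRNA, at -0.88 ± 0.08, Higd1a at -0.77 ± 0.08 and cytochrome c (Cycs) at -0.67 ± 0.07. Between the viruses after TAC, 6 of these 25 were higher and 3 lower, against 18.5% and 24.6% of all tested genes, so the share that was higher lay near the background. The higher ones included Lrpprc (0.70 ± 0.08) and Cycs (0.45 ± 0.07), and the lower ones were Cox19 (-0.51 ± 0.08), Higd2a (-0.35 ± 0.11) and Cox17 (-0.26 ± 0.09). For complex V, 7 of 8 were lower with vector, among them Tmem70 (-0.81 ± 0.08), an assembly factor, and the phosphate carrier Slc25a3 (-0.63 ± 0.07). The eighth was Atpif1, the inhibitor of ATP hydrolysis by the enzyme, which was higher by 0.22 ± 0.09 (edgeR adjusted p = 0.0463) and in PRODH TAC was at -0.52 ± 0.09 relative to vector TAC.

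Of 12 regulators of respiratory genes, 9 were lower and 0 higher after TAC with vector, against 26.2% and 30.3% of all tested genes. In PRODH TAC 8 were higher and 0 lower than in vector TAC, against 18.5% and 24.6%. The regulators were not examined under the other scalings or the GC offset, under which calls of the subunit genes changed. Esrra, Esrrg and Tfam, 2 oestrogen-related receptors and the factor that packs mitochondrial DNA, changed by -0.68 ± 0.08, -0.76 ± 0.11 and -0.74 ± 0.10 with vector. Ppargc1a, the coactivator PGC-1alpha, stood at 51.9 ± 7.87 CPM after sham and 32.8 ± 3.94 CPM after TAC with vector, and at 53.6 ± 8.09 and 51.5 ± 3.01 CPM with PRODH. In PRODH TAC it was higher than in vector TAC by 0.65 ± 0.11, and its relative Ppargc1b by 0.89 ± 0.13. In the PRODH arm 2 of the 12 fell after TAC, Esrra (-0.31 ± 0.08) and Tfb2m (-0.23 ± 0.08), a share near the 17.8% of all tested genes that were lower there.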

How the data were processed

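RNA-seq of isolated cardiomyocytes (16 libraries) was deposited by the authors as 1 table of estimated counts per gene model, with a length column, per the file headers. The labels' protocols name TRIzol, DNase I and the SMARTER mRNA-Seq kit. How reads were aligned and counted, on which build and annotation, and whether by strand was not given in the sources used here. Of the 41 subunit genes that passed the filter, 19 had fractional counts in at least 1 library, 5 of them in all 16 (Cox5a, Cox7c, Uqcrc2, Atp5l, Atp5g2), so their reads may be shared with near-identical copies and their levels are uncertain to that extent. The 12 names with -ps held 538 counts, 0.00801% of those of the 45 genes, and were left out.

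Estimated counts were rounded and tested with edgeR 4.0.16 (R 4.3.3): genes with too few counts were removed (minimum count 10, minimum total 15), libraries were scaled by TMM, and a robust quasi-likelihood model was fitted over all 4 groups, with Benjamini-Hochberg adjustment over 14066 genes and a threshold of 0.05. CPM are normalised by the TMM library sizes, and CPM per kb use the deposited length. GC content was read from the GENCODE M21 transcript of the deposited length, or from the longest transcript where no length matched. Isoform ratios used a pseudocount of 0.5 counts for the log2 scale. The fit was tested on simulated data: for TAC against sham with vector (13747 genes), 16.4%, 53.7% and 78.8% of changes of 1.25-, 1.5- and 2-fold were found, and for PRODH against vector after TAC 23.9%, 58.2% and 89.4%. The changes, in 67, 67 and 66 genes, were planted only in vector TAC and served for both comparisons. In the data 56.5% and 43.1% of genes were called, so the simulation cannot tell what share of real changes was found. Every pair of libraries within a group differed by more than sampling noise (chi-square per gene 2.87 to 30.7, where 1 is expected), and each was kept as its own library. This cannot show that they are separate mice, because separate preparations of 1 sample may also differ by more than sampling noise. In vector TAC the value was 3.06 for replicates 3 and 4, 9.63 for 1 and 2, and 13.7 to 30.7 for the other pairs.

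Groups and replicate numbers came from the sample titles. The genes and the lists were chosen with earlier results of these data known. Full values go to the isoform pairs, the complex III core and Rieske genes, the ATP synthase alpha and beta genes and the 3 largest and 3 smallest changes in each comparison; other genes named are those called between the viruses, or given for their role. From each partner list up to 3 genes of the smallest p are named, plus regulators, Atpif1, Cox17, Cox19 and Higd2a singled out after their values were seen. The alternatives were other scalings (library size, DESeq2 size factors, mitochondrial genes left out, the cardiomyocyte marker sum), DESeq2 1.42.0, no filter, only the groups compared, a replicate block, leaving out each library, and a GC offset added after seeing the data.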

Additional observations from a re-analysis of the deposited data

Results flagged for a closer look

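Within groups of 4 libraries, 4 of the 96 groups examined held 1 library far from the others, where chance gives about 1 in 20. Atp5b stood at 3895 CPM in vector sham replicate 2, with the next library at 3558. Cox4i2 stood at 5.91 CPM in vector TAC replicate 4, with the next at 3.83. Cox5a stood at 365 CPM in vector TAC replicate 2, with the next at 324, and Cox6a1 stood at 32.3 CPM in PRODH sham replicate 4, with the next at 25.4.

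For 6 genes the effect of TAC differed between the viruses in a test of the difference (PRODH minus vector, edgeR). The same test called 26.8% of all tested genes, 10.9% higher and 15.8% lower, so such calls were not particular to the subunit genes. The difference was 0.35 for Atp5md (adjusted p = 0.0105), 0.31 for Atp5pb (adjusted p = 0.0172), 0.34 for Cox6c (adjusted p = 0.0304), 0.33 for Uqcrb (adjusted p = 0.0371), 0.26 for Uqcrc2 (adjusted p = 0.0423) and -0.76 for Cox4i2 (adjusted p = 0.0259). With the GC offset it was 0.15 for Uqcrb (adjusted p = 0.375), 0.13 for Uqcrc2 (adjusted p = 0.26), 0.24 for Atp5md (adjusted p = 0.1), 0.30 for Cox6c (adjusted p = 0.0512), -0.65 for Cox4i2 (adjusted p = 0.0423) and 0.27 for Atp5pb (adjusted p = 0.0122).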

How the results depend on the processing

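After TAC with vector, 37 genes were lower and 1 higher in every fit that left out 1 library. Library size alone gave 21 lower and 3 higher, and the cardiomyocyte sum gave 2 higher. With PRODH the lower count of 37 ran from 33 to 38 when 1 library was left out, and the higher count was 0 each time. The lower count was 19 with library size alone and 22 with the cardiomyocyte sum, each with 2 higher. Among all tested genes, library size alone gave 1198 lower with vector and 311 with PRODH, in place of 3686 and 2500. The cardiomyocyte sum gave 1364 and 354.

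Between the viruses after TAC, leaving out 1 library gave 1 to 9 lower and 4 to 12 higher, in place of 8 and 6. Over all tested genes those fits gave 2986 to 3444 lower and 2234 to 3128 higher, in place of 3456 and 2603. The lower count was 5 with library size alone, with DESeq2 size factors and with mitochondrial genes left out, and 3 with the DESeq2 Wald test. The higher count was 11 with library size alone and with the GC offset, 10 with mitochondrial genes left out and with only the groups compared, and 13 with the cardiomyocyte sum. For the difference of the TAC effects, leaving out 1 library gave 0 to 3 lower and 2 to 12 higher. Library size alone gave 2 lower, no filter gave 3, and the cardiomyocyte sum gave 0 lower and 8 higher. Between the sham groups the counts stayed at 0 in each leave-one-out fit. The count of 0 among the isoform ratios (0 to 0) says nothing about stability, since the smallest exact p of 0.0286 limits what can pass over 28 tests.

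Same-numbered libraries of different groups did not clearly deviate together (correlation -0.13 to 0.17, over 0.1 in 3 of 24 pairs, and 5 of 16 libraries best with their own number). For libraries of other numbers the correlation was -0.19 to 0.21, over 0.1 in 8 of 72 pairs. The main fit did not pair the libraries. With 4 libraries a group, these values cannot exclude a weak pairing. A replicate block gave 14 lower genes between the viruses after TAC and 3 lower for the difference of the TAC effects. Of all 14066 tested genes, 3482 and 2266 were lower with that block.

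Several single genes changed sign. Cox6a1 after TAC with vector turned to 0.28 with library size alone and 0.24 with the cardiomyocyte sum, and Cox7a2l to 0.07 and 0.02. In the PRODH arm, Atp5j2 turned to 0.11 and 0.10, Atp5md to 0.33 and 0.32, Uqcrc2 to 0.03 and 0.02, Cox6c to 0.06 and 0.05, Uqcrh to 0.08 and 0.07, Atp5mpl to 0.09 and 0.09, Cox6a1 to 0.08 and 0.08, Atp5g2 to 0.09 and 0.09, and Atp5l to 0.01 and 0.00 with library size alone and the cardiomyocyte sum, and Cox7b and Cox7c came to 0.00 with library size alone. The cause of these shifts was not tested.

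Limits: 4 libraries a group leave small changes undetected. Cox4i2, Cox6b2 and Atp5g2 rest on few counts.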
